A study of Danio rerio with 17 samples.

Results

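A set of 150 genes, here called its members, had, in midbrain, a higher value in every fish of one zebrafish population than in any fish of the other. The 2 populations were Transgenic Mosaic 1 and Pargana. A gene was taken when the lowest log2 value among the 9 Transgenic Mosaic 1 fish exceeded the highest among the 8 Pargana fish. Of 15648 genes measured, 154 (0.984%) met this rule. Of these 154, TYMS, MMAB, CRYM and IFIH1 were left out by name, and the 10 other genes that the rule leaves out by name did not meet it. The same rule turned round, with every Pargana fish above every Transgenic Mosaic 1 fish, took 149 genes (0.952%). The genes were therefore chosen by the difference between the populations. Their levels in the 2 populations are given as a description, and nothing is read from population tests of the genes of the set. Counts of called genes in a family are given for its genes outside the set.

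RNA was measured in the midbrains of 17 male zebrafish aged 1 year, each array holding 1 fish. Before sampling, each fish ate 1 of 3 diets for 10 weeks, with selenium given as selenomethionine. The deficient diet held 0.46 ppm selenium, the control diet 1.7 ppm and the supplemented diet 3.1 ppm. Transgenic Mosaic 1 had 3 fish on each diet, and Pargana had 3 deficient, 2 control and 3 supplemented fish. The labels do not say which transgene Transgenic Mosaic 1 carries or in which cells it acts. Values are the authors' log2 expression values per gene, so a difference of 1 is a doubling of the signal. The arrays had medians between 9.62 and 9.73, and single values lay between 3.48 and 15.49. Precision is limited by how few arrays there are.

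Zebrafish laboratory populations are founded from few fish and kept apart, and they are known to carry many inherited sequence differences. Fish genomes keep duplicate copies of many genes from an ancient genome duplication, and some families, such as the finTRIM genes named for their tripartite motif, have expanded into many near-identical copies. The midbrain of an adult fish holds the optic tectum and tegmentum, with neurons, radial glia that still divide, oligodendrocytes, microglia and vessels.

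Markers of midbrain neurons were measured in all fish. ELAVL3, an RNA-binding protein of neurons, lay between 13.38 and 13.63 in Transgenic Mosaic 1 and between 13.28 and 13.63 in Pargana. The mean of 20 neuron markers, centred on all fish, ranged from -0.03 to 0.06 in Transgenic Mosaic 1 and from -0.09 to 0.08 in Pargana. Of these markers 2 were called higher in Transgenic Mosaic 1 and none lower, otx2a (0.47 ± 0.13, limma adjusted p = 0.0246) and an EN2 feature, ENSDARG00000038868 (0.42 ± 0.10, adjusted p = 0.0132). Fast muscle markers had mean scores of -0.53 to -0.04 in Transgenic Mosaic 1 and -0.26 to 1.18 in Pargana, with 6 of 23 called lower in Transgenic Mosaic 1. Pituitary markers had scores of -0.56 to -0.10 in Transgenic Mosaic 1 and -0.42 to 1.70 in Pargana, with 3 of 13 called lower. Radial glia markers had scores of -0.13 to 0.39 in Transgenic Mosaic 1 and -0.37 to 0.11 in Pargana, with 1 of 9 called higher and none lower. The called one was a FABP7 feature, ENSDARG00000034650 (2.33 ± 0.66, limma adjusted p = 0.0323), and the other 8 had differences of -0.29 to 0.50. A score above 0.9 in any of the 9 marker lists was reached by 1 Transgenic Mosaic 1 fish and by 4 Pargana fish, which include both Pargana control fish. None of the 136 marker features was in the set.

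Because the scores differ between the populations, the values of the set are given with them. Among all genes limma called 2089 (13.3%) different between the populations at an adjusted p under 0.05. With the muscle, eye and pineal, pituitary and macrophage scores as covariates it called 32. The median difference of the 150 genes was then 0.69 against 0.77 without covariates, and 149 of them stayed above 0. The exception was ENSDARG00000071890, at -0.16 with the scores and 1.86 without. For 11 of the 150 genes the difference with the scores was less than 0.5 of that without, among them ftr57 (0.08 with the scores, 1.95 without), PDLIM3 (0.06 and 1.18) and itih3a.2 (0.30 and 1.67). Without the 5 fish of high score the median was 0.75. No Pargana control fish was then left, so this value is not averaged over the same diets as 0.77. All 150 differences were above 0 there, which the rule fixes in advance for any fish left out, so nothing is read from it. Then 440 genes met the rule, since fewer fish have to be apart. The part of tissue content in these values was not tested further. In whole midbrain, more cells of a type and more RNA in each cell cannot be told apart.

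The size of the difference ranged widely. Averaged over the 3 diets, Transgenic Mosaic 1 exceeded Pargana by 0.19 (UBE2H and tmeff1b) to 3.40 (ENSDARG00000088489) on the log2 scale. The median was 0.77 (1.71-fold) and the quartiles were 0.51 and 1.13. Only 7 genes differed by more than 2, 42 by 1 to 2, 70 by 0.5 to 1 and 31 by less than 0.5. All genes together had a median difference of -0.013. The set is thus not a list of the largest differences. Of the 151 genes that limma called higher in Transgenic Mosaic 1 by more than 1, 49 were in the set, and of the 27 called higher by more than 2, 7 were. The 151 also hold TYMS, MMAB, CRYM and IFIH1, which met the rule and were left out by name, and the 27 hold TYMS and MMAB. Over the whole table limma called 1002 genes (6.4%) higher in Transgenic Mosaic 1 and 1087 (6.95%) lower, and the set makes up 15.0% of the 1002.

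Genes called higher outside the set are described here without those that the rule leaves out by name. Among them the 5 largest differences were 2.83 to 3.71. In these between 1 and 9 Transgenic Mosaic 1 fish lay at or below the highest Pargana fish. The largest was that of si:dkey-56d12.4, a difference of 3.71, with values of 6.80 to 10.24 in Transgenic Mosaic 1 and 4.28 to 8.0 in Pargana, where 1 Transgenic Mosaic 1 fish lay at or below the highest Pargana fish. Small differences entered the set where fish of a population were close together. UBE2H, a ubiquitin-conjugating enzyme, had 12.79, 12.83 and 12.96 as its lowest, median and highest value in Transgenic Mosaic 1, against 12.57, 12.68 and 12.71 in Pargana. The median spread within groups was 0.22 for the set and 0.23 for all genes (residual SD, log2).

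**Figure D1:**
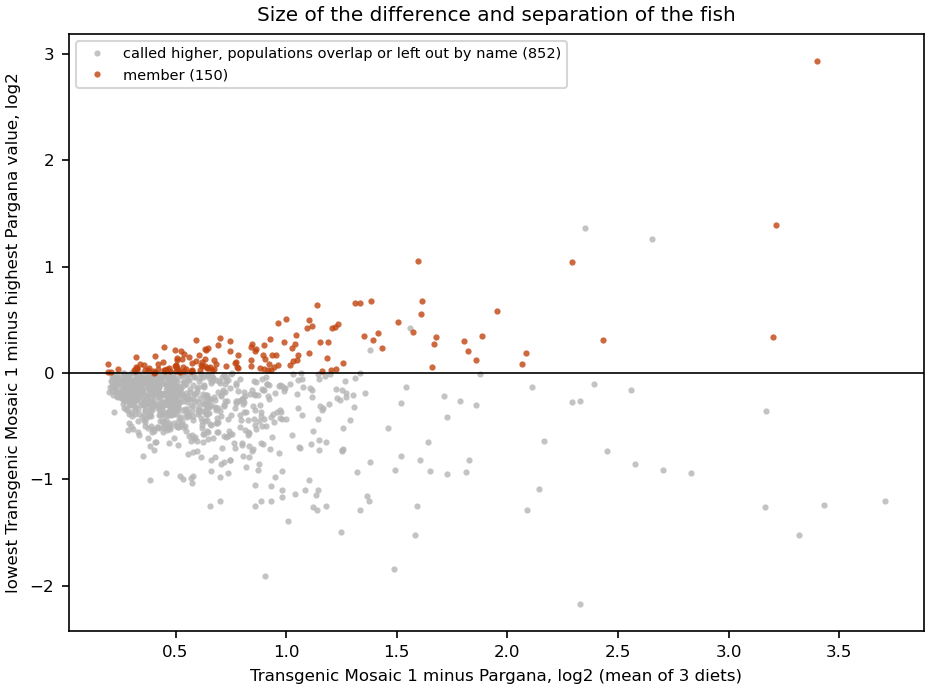
Genes called higher in Transgenic Mosaic 1, each a point. The x axis is the mean difference from Pargana over the 3 diets (log2) and the y axis is the lowest Transgenic Mosaic 1 value minus the highest Pargana value (log2). The 150 genes of the set (orange-red) lie above the line at 0, and ENSDARG00000088489 stands alone at the top right with a difference of 3.40 and a gap of 2.93.

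The gap between the nearest fish of the 2 populations had a median of 0.12 and exceeded 1 in 4 genes, which were ENSDARG00000088489 (2.93), ENSDARG00000040431 (1.39), NEU4 (1.05) and HPSE (1.05). At the other end the rule decided on differences of no size. Just inside were tdrkh, a Tudor-domain protein of the piRNA pathway, with a gap of 0.000252, tmeff1b (0.00579), SPIRE2 (0.00936), CD99L2 (0.0104) and EOGT (0.0126). Just outside were 13 genes whose nearest fish were tied, among them QARS1, DPYSL5, SPOUT1, LACTB and prlrb. The receptor gene prlrb differed by 1.33 on average and was kept out by 1 tie at 8.10. With any 1 fish left out the set grew, to between 161 and 203 genes, since fewer fish have to be apart. Within the set of 150, each of the 17 fish was the one nearest to the other population in between 9 and 26 of the genes.

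**Figure D2:**
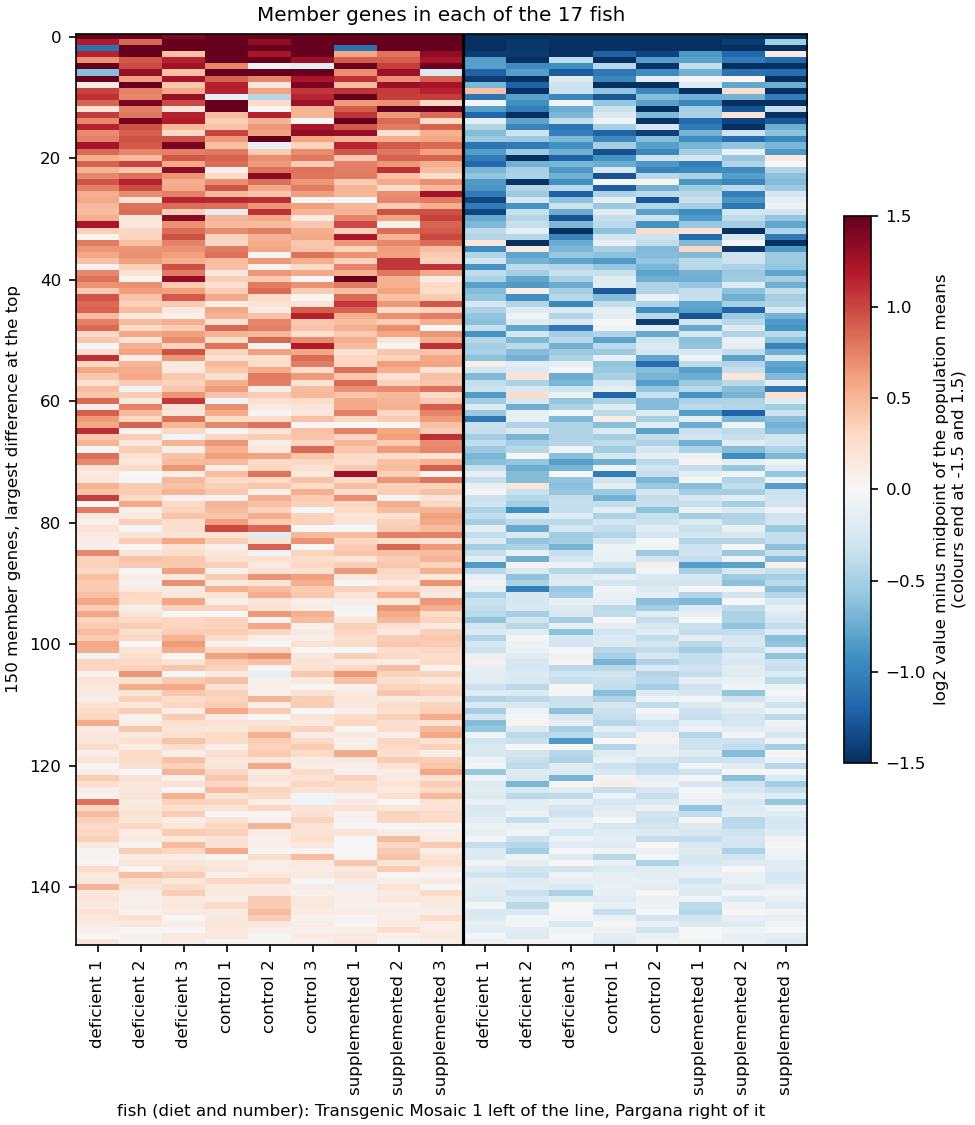
The 150 genes (rows, largest difference at the top) in each of the 17 fish (columns, Transgenic Mosaic 1 left of the line and Pargana right of it). Colour is the log2 value minus the midpoint of the population means, with the scale ending at -1.5 and 1.5. Averaged over the genes, each Transgenic Mosaic 1 fish lies 0.39 to 0.48 above the mean of all fish and each Pargana fish 0.45 to 0.50 below it.

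Of the 150 genes, 121 have a symbol, of which 9 are names of genomic clones, and 29 (19.3%) have only an identifier, against 15.3% of all genes. The unnamed genes held many of the large differences, with 16 of 29 over 1 on the log2 scale against 33 of the 121 named genes. ENSDARG00000088489 had 7.53, 7.76 and 8.17 as lowest, median and highest value in Transgenic Mosaic 1, against 4.30, 4.44 and 4.59 in Pargana, a difference of 3.40 ± 0.10 (SE, 9 and 8 fish). Its Pargana values lay near the floor of the arrays, and no fish was intermediate. ENSDARG00000040431 had 7.42, 8.19 and 8.64 in Transgenic Mosaic 1, against 4.43, 4.89 and 6.03 in Pargana, a difference of 3.21 ± 0.19.

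ENSDARG00000076531 had 5.27, 8.63 and 9.40 in Transgenic Mosaic 1, against 4.65, 4.79 and 4.93 in Pargana, a difference of 3.20 ± 0.53. The Pargana values lay near the floor of the arrays. In this gene Transgenic Mosaic 1 itself fell into high and low fish. Deficient fish 1 and supplemented fish 1 had 5.27 each, next to the Pargana fish, and the other 7 had at least 8.17. The remaining unnamed genes among the 20 largest were ENSDARG00000071890 (1.86 ± 0.37), ENSDARG00000094926 (1.80 ± 0.22), ENSDARG00000074035 (1.68 ± 0.25), ENSDARG00000092442 (1.66 ± 0.26), ENSDARG00000058980 (1.62 ± 0.15) and ENSDARG00000026246 (1.61 ± 0.16). In ENSDARG00000071890 the Pargana fish ran from 6.49 to 9.41 while the Transgenic Mosaic 1 fish kept to 9.53 to 10.11, so most of the spread was in Pargana. Pargana values of ENSDARG00000092442 were low, at 4.19 to 5.6.

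**Figure D3:**
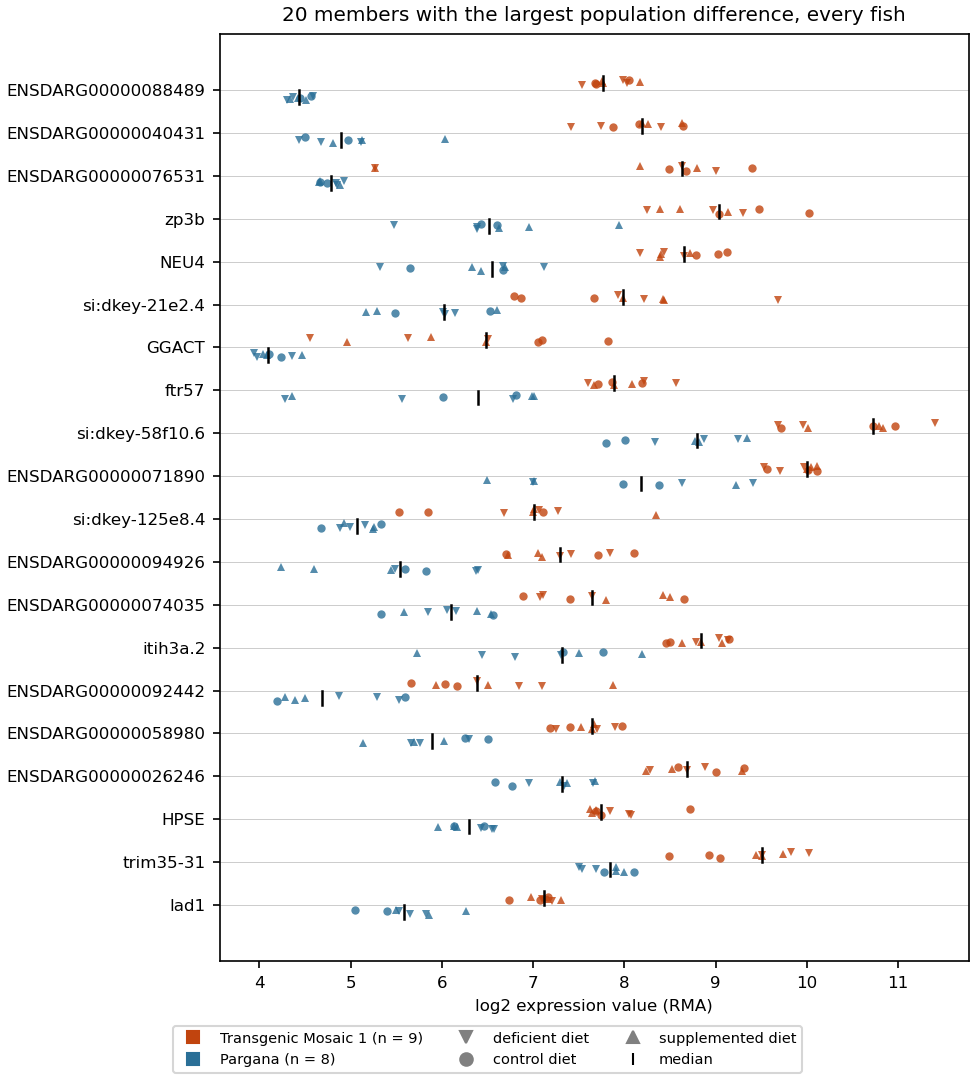
Log2 values (x axis) of every fish for the 20 genes with the largest population difference, Transgenic Mosaic 1 in orange-red above Pargana in blue. Symbols mark the diet and black bars the median of 9 or 8 fish. The populations do not overlap in any row, by the rule, but the width of each cloud differs, as in GGACT, where Transgenic Mosaic 1 runs from 4.55 to 7.82 and Pargana from 3.94 to 4.47.

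Among named genes the largest difference belonged to zp3b (ENSDARG00000039828), a zona pellucida glycoprotein of the egg coat. It had 8.25, 9.04 and 10.02 in Transgenic Mosaic 1, against 5.48, 6.51 and 7.94 in Pargana, a difference of 2.43 ± 0.23 in male midbrain. The highest Pargana fish, supplemented fish 3, came within 0.31 of the lowest Transgenic Mosaic 1 fish. Of the 13 other zona pellucida genes measured, 2 (15.4%) were called higher in Transgenic Mosaic 1 and 1 lower. Over all genes 6.4% were called higher and 6.95% lower. The called zona pellucida genes were zp3e (0.92 ± 0.16, limma adjusted p = 0.00286), zp3a.2 (0.69 ± 0.20, adjusted p = 0.035) and, in the other direction, zp3f.2 (-0.65 ± 0.19, adjusted p = 0.0381).

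The 107 named genes whose role is known were sorted into 12 classes after the list had been seen. The classes therefore describe the list and carry no test. Genes of the cytoskeleton, of adhesion and of the matrix formed the largest class, with 19 genes and differences of 0.21 to 2.43. Metabolic enzymes numbered 13, transcription and chromatin genes 12, and genes of membrane traffic and organelles 12. RNA processing and translation had 10 genes, transporters and channels 8, immunity and cell death 7, and receptors and hormones 7. Genome maintenance had 6, centrosome and cilium genes 6, ubiquitin and proteasome genes 5, and signalling enzymes 2. The median differences ran from 0.50 for RNA processing to 1.04 for receptors and hormones.

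Enzymes that trim sugar chains stood high among the metabolic genes. NEU4 (ENSDARG00000057677), a sialidase that removes sialic acid from gangliosides and glycoproteins, had 8.17, 8.65 and 9.12 in Transgenic Mosaic 1, against 5.32, 6.55 and 7.12 in Pargana. The difference was 2.29 ± 0.22, and it lay between 2.02 and 2.82 in the 3 diets. HPSE (ENSDARG00000063634) encodes heparanase, which cuts the heparan sulfate chains of matrix proteoglycans. It had 7.62, 7.74 and 8.72 in Transgenic Mosaic 1, against 5.96, 6.30 and 6.57 in Pargana, a difference of 1.59 ± 0.13. In both genes the nearest fish were more than 1 log2 unit apart. The 2 other sialidase genes measured were not called. EOGT, which adds N-acetylglucosamine to extracellular domains (0.52 ± 0.10), and b3gnt7l, a glycosyltransferase (0.64 ± 0.09), also met the rule.

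GGACT (ENSDARG00000038248), an enzyme that opens the cross-links left when transglutaminase-joined proteins are broken down, had 4.55, 6.48 and 7.82 in Transgenic Mosaic 1, against 3.94, 4.1 and 4.47 in Pargana. The difference was 2.06 ± 0.26, and the Transgenic Mosaic 1 fish were more than 3 units apart while the Pargana fish lay together, near the floor of the arrays. The array holds 2 further features named GGACT. One of them, ENSDARG00000070579, was called higher too (1.31 ± 0.29, limma adjusted p = 0.0103), and ENSDARG00000070581 was not (0.69 ± 0.26, adjusted p = 0.0938). Features of near-identical gene copies may share probe signal, and that was not tested.

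Other metabolic genes were PTGR2, a prostaglandin reductase (1.2 ± 0.30), the cytochrome P450 cyp2ae1 (1.02 ± 0.14) and ABHD10, a mitochondrial thioesterase (0.88 ± 0.14). NIT2, an omega-amidase (0.84 ± 0.09), DHTKD1 of lysine breakdown (0.78 ± 0.10) and ENOPH1 of methionine salvage (0.50 ± 0.09) followed. COASY, which completes coenzyme A (0.46 ± 0.09), and ATPAF2, an assembly factor of ATP synthase (0.44 ± 0.07), had the smallest differences of the class. In PTGR2 the Pargana fish spread from 8.70 to 11.23 and the Transgenic Mosaic 1 fish from 11.26 to 11.87, so a Pargana fish almost reached them. Among the 48 other cytochrome P450 genes measured, 1 (2.08%) was called higher in Transgenic Mosaic 1 and 9 lower. Over all genes 6.4% were called higher and 6.95% lower.

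In the class of cytoskeleton, adhesion and matrix, itih3a.2 (ENSDARG00000055053), an inter-alpha-trypsin inhibitor heavy chain that binds hyaluronan, had 8.46, 8.84 and 9.15 in Transgenic Mosaic 1, against 5.73, 7.32 and 8.19 in Pargana (1.67 ± 0.27). The ladinin gene lad1 (ENSDARG00000022698), known from basement membranes, had 6.74, 7.12 and 7.31 in Transgenic Mosaic 1, against 5.05, 5.59 and 6.26 in Pargana (1.51 ± 0.11). Both genes were tight in Transgenic Mosaic 1 and wider in Pargana. CILP2, a cartilage matrix protein (1.41 ± 0.13), abi3a, an Abl interactor that acts on actin (1.31 ± 0.14), PDLIM3, a PDZ and LIM protein of muscle Z-discs (1.18 ± 0.23), and clmnb, a calmin (1.14 ± 0.11), came next. Pargana values of clmnb, 4.56 to 5.11, were near the floor of the arrays.

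Differences under 1 in this class belonged to CAVIN2, a coat protein of caveolae (0.96 ± 0.16), and lim2.1, a lens fibre membrane protein (0.93 ± 0.16). Actin and polarity genes had smaller ones still. They were RHOU (0.67 ± 0.09), the apical scaffold PALS1 (0.51 ± 0.08), the guanine exchange factor FGD6 (0.50 ± 0.07) and the actin nucleator SPIRE2 (0.41 ± 0.09). The planar polarity cadherin celsr1b (0.36 ± 0.06), ARPC1A of the actin-branching complex (0.31 ± 0.07) and CD99L2 (0.21 ± 0.06) were at the low end. PLEKHH1 (0.78 ± 0.10), BVES, a Popeye-domain protein (0.64 ± 0.10), and habp2, a hyaluronan-binding protease (0.62 ± 0.11), complete the class with zp3b.

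Genes of DNA repair and chromosome cohesion formed a small group of 6 with a median difference of 0.97. ESCO2 (ENSDARG00000014685), the acetyltransferase that locks cohesin onto sister chromatids, had 9.12, 9.83 and 10.40 in Transgenic Mosaic 1, against 8.07, 8.29 and 8.81 in Pargana (1.39 ± 0.17). The helicases DDX11, which also acts in cohesion (1.03 ± 0.13), and HELQ, which acts in repair of DNA cross-links (1.05 ± 0.13), came next. The remaining 3 were nbn of the complex that senses DNA breaks (0.92 ± 0.18), the condensin subunit ncaph2 (0.66 ± 0.13) and TOP3A, a topoisomerase (0.57 ± 0.09). Of 15 other cohesin subunits and cohesion factors looked up afterwards, 1 (6.67%), rad21l1, was called higher in Transgenic Mosaic 1 (0.83 ± 0.21, limma adjusted p = 0.0181) and none lower, where 6.4% of all genes were called higher. None of the 7 other condensin subunits was called.

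The 6 genes of centrosome, cilium and microtubule had smaller differences, with a median of 0.65. The centriole protein poc5 had 1.1 ± 0.20, the augmin subunit haus2 0.90 ± 0.12 and IFT46 of ciliary transport 0.70 ± 0.08. The dynein light intermediate chain DYNC1LI2 had 0.59 ± 0.09, the centrosome protein CEP19 0.42 ± 0.06 and MDM1, a centriole protein, 0.36 ± 0.07.

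Receptors and hormones had the highest median difference of the classes, 1.04 over 7 genes. The adenosine receptor adora3a.1 (ENSDARG00000044061) had 11.02, 11.33 and 11.73 in Transgenic Mosaic 1, against 9.52, 10.21 and 10.36 in Pargana (1.33 ± 0.10). The other 3 adenosine receptor genes measured were not called. CHRNA5 (ENSDARG00000003420), a subunit of nicotinic acetylcholine receptors, had 10.90, 11.55 and 11.76 in Transgenic Mosaic 1, against 10.14, 10.34 and 10.62 in Pargana (1.15 ± 0.12).

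CHRNA2 (ENSDARG00000006602), another nicotinic subunit, had 8.56, 8.86 and 9.01 in Transgenic Mosaic 1, against 6.78, 7.55 and 8.54 in Pargana (1.16 ± 0.21). The second feature named CHRNA2, ENSDARG00000057025, went the other way. It had 8.87, 9.06 and 9.46 in Transgenic Mosaic 1, against 9.27, 9.50 and 9.99 in Pargana (-0.48 ± 0.06, limma adjusted p = 0.000331). So the 2 features with the same symbol had differences of opposite sign. Of 15 nicotinic subunit features outside the set 1 was called higher, a CHRNB3 (0.64 ± 0.18, limma adjusted p = 0.0323), and 1 lower, the second CHRNA2. Over all genes 6.4% were called higher and 6.95% lower.

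The natriuretic peptide gene nppa (ENSDARG00000052960), a heart hormone also made in brain, had 5.82, 6.11 and 6.77 in Transgenic Mosaic 1, against 4.75, 5.26 and 5.45 in Pargana (1.04 ± 0.11). Its relative nppb was not in the set, yet it was called higher by more (2.33 ± 0.26, limma adjusted p = 9.31e-05). The smaller differences were those of lft2, a Lefty protein that blocks Nodal signals (0.62 ± 0.12), ghrh, the releasing hormone for growth hormone (0.45 ± 0.10), and the adiponectin receptor ADIPOR1 (0.41 ± 0.06). Values of ghrh were near the floor of the arrays, 4.45 to 5.34 in Transgenic Mosaic 1 and 3.94 to 4.41 in Pargana. Pargana values of nppa, 4.75 to 5.45, were also low.

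Among genes of immunity and cell death, ftr57 (ENSDARG00000074360), a finTRIM gene of the fish-specific branch of the tripartite motif family, had 7.60, 7.89 and 8.56 in Transgenic Mosaic 1, against 4.28, 6.39 and 7.01 in Pargana (1.95 ± 0.39). The Pargana fish were uneven, with 4.28 in deficient fish 2 and 4.36 in supplemented fish 3. The related trim35-31 (ENSDARG00000052097) had 8.49, 9.51 and 10.02 in Transgenic Mosaic 1, against 7.5, 7.85 and 8.10 in Pargana (1.57 ± 0.10). Of the 61 other genes of this family 4 (6.56%) were called higher in Transgenic Mosaic 1 and 5 lower. Over all genes 6.4% were called higher and 6.95% lower. The called genes of the family ran from ftr51 (-2.06 ± 0.31, limma adjusted p = 0.000895) to trim16 (1.30 ± 0.21, adjusted p = 0.00149).

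The other genes of this class were casp21, a caspase (1.22 ± 0.20), lgals2a, a galectin (0.93 ± 0.11), and RSAD2, the antiviral protein viperin (0.78 ± 0.18). The paracaspase malt1 (0.63 ± 0.12) and mhc2bl, an MHC class II gene (0.54 ± 0.11), followed. The values of mhc2bl were near the floor of the arrays, 4.48 to 5.27 in Transgenic Mosaic 1 and 4.16 to 4.44 in Pargana. None of the 23 other MHC genes measured was called.

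Transporters and channels included 5 solute carriers. AQP8 (ENSDARG00000045141), an aquaporin, had 8.06, 8.45 and 8.59 in Transgenic Mosaic 1, against 6.02, 6.92 and 7.82 in Pargana (1.43 ± 0.14). CLIC3 (ENSDARG00000044776), of the chloride intracellular channel family, had 8.76, 9.07 and 9.54 in Transgenic Mosaic 1, against 6.92, 7.52 and 8.42 in Pargana (1.35 ± 0.11). Both genes spread more widely among Pargana fish than among Transgenic Mosaic 1 fish. The solute carriers were the amino acid transporters SLC7A9 (0.75 ± 0.14) and SLC7A4 (0.59 ± 0.08), SLC35A3, which brings UDP-N-acetylglucosamine into the Golgi (0.54 ± 0.08), SLC4A4, a bicarbonate cotransporter (0.50 ± 0.09), and SLC2A1, the glucose transporter of the blood-brain barrier (0.47 ± 0.11).

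SLC2A1 was among the strongest signals of the set. It had 13.85, 14.02 and 14.20 in Transgenic Mosaic 1, against 13.10, 13.64 and 13.81 in Pargana. Of the 280 other solute carriers 15 (5.36%) were called higher and 25 lower, where 6.4% and 6.95% of all genes were.

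Genes of ubiquitin tagging and the proteasome were fbxo44.9 (1.25 ± 0.24), the RING-finger gene rnf214 (0.69 ± 0.08), UBE2G2 of degradation at the endoplasmic reticulum (0.57 ± 0.09), the proteasome ATPase PSMC6 (0.24 ± 0.05) and UBE2H (0.19 ± 0.05). The F-box gene fbxo44.9 had 8.88, 9.64 and 10.05 in Transgenic Mosaic 1, against 7.55, 8.43 and 8.78 in Pargana. Of 6 other genes named fbxo44, looked up afterwards, 3 were called higher and none lower, where 6.4% of all genes were called higher. They were fbxo44.7 (1.64 ± 0.43, limma adjusted p = 0.0233), fbxo44.8 (0.86 ± 0.22, adjusted p = 0.0207) and fbxo44.1 (0.43 ± 0.09, adjusted p = 0.00513). The 3 not called were fbxo44.10 (0.33 ± 0.22), fbxo44.3 (-0.36 ± 0.20) and fbxo44.5 (-0.11 ± 0.08). Over the 40 F-box genes other than fbxo44.9, 7 (17.5%) were called higher and 4 lower. The 40 include the 6 other fbxo44 genes, and the 7 include the 3 of these that were called. Of the 27 other ubiquitin-conjugating enzymes 1 was called higher and 1 lower.

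Nuclear genes made up a broad group with modest differences. Among 12 genes of transcription and chromatin, carm1l, an arginine methyltransferase, had the largest (1.22 ± 0.16), followed by brms1la, a subunit of a histone deacetylase complex (1.1 ± 0.11). Pargana values of carm1l, 4.17 to 5.16, were near the floor of the arrays. The zinc finger genes were znf654 (0.96 ± 0.10), znf1170 (0.90 ± 0.15), ZNF330 (0.66 ± 0.10) and znf1171 (0.37 ± 0.07). Of the zinc finger genes outside the set 5 (4.81%) were called higher and 10 lower, where 6.4% and 6.95% of all genes were. GTF3C3 of the RNA polymerase III machinery had 0.86 ± 0.10, the histone demethylase riox1 0.65 ± 0.10 and the homeobox gene ADNP2 0.64 ± 0.12. TBPL1, related to the TATA-binding protein (0.53 ± 0.10), NKAPL (0.51 ± 0.07) and the Polycomb-group protein L3MBTL2 (0.42 ± 0.08) had smaller differences.

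The 10 genes of RNA processing and translation did not exceed 1 on the log2 scale. GUF1, a mitochondrial elongation factor, had 1.00 ± 0.10, EDC3, which aids removal of the mRNA cap, 0.94 ± 0.11, and SNRNP25 of the minor spliceosome 0.68 ± 0.14. The RNA phosphatase dusp11 (0.62 ± 0.10), the mitochondrial RNA helicase SUPV3L1 (0.54 ± 0.09) and IMPACT, a translation regulator (0.45 ± 0.09), were in between. PUS1, a pseudouridine synthase (0.40 ± 0.11), tdrkh (0.40 ± 0.08), CSTF1 of mRNA 3′ end cleavage (0.34 ± 0.06) and the nucleolar protein NIFK (0.33 ± 0.07) were the smallest.

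Genes of membrane traffic and organelles also stayed below 1. The Golgi tether COG8 (0.92 ± 0.12) and the syntaxin-binding protein stxbp3 (0.89 ± 0.14) led them. SEC61A1 of the translocon (0.73 ± 0.12), TMED3 (0.57 ± 0.09), the mitochondrial fission factor mffb (0.57 ± 0.07), STX3 (0.52 ± 0.07) and snx16 (0.50 ± 0.10) came next. PEX16 (0.33 ± 0.06), the autophagy gene ATG14 (0.32 ± 0.06), rcn3 (0.32 ± 0.07) and EHD3 of endosome recycling (0.32 ± 0.09) had the smallest differences. The signalling enzymes were the phosphatase DUSP12 (0.86 ± 0.14) and the kinase SGK3 (0.77 ± 0.09).

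The remaining 14 named genes were 9 clone names and 5 genes that fit no class. The clone name si:dkey-21e2.4 had 6.79, 7.99 and 9.68 in Transgenic Mosaic 1, against 5.17, 6.02 and 6.60 in Pargana (2.09 ± 0.27). In si:dkey-58f10.6 the values were 9.68, 10.72 and 11.40 in Transgenic Mosaic 1, against 7.80, 8.80 and 9.34 in Pargana (1.88 ± 0.26). The gene si:dkey-125e8.4 had 5.53, 7.01 and 8.35 in Transgenic Mosaic 1, against 4.68, 5.07 and 5.33 in Pargana (1.82 ± 0.24). In all 3 the fish with the lowest value in Transgenic Mosaic 1 stood within 0.4 of the highest Pargana fish. Pargana values of si:dkey-125e8.4 lay near the floor of the arrays. Of the 8 genes named for the clone of si:dkey-58f10.6, 1 other, si:dkey-58f10.8, was called higher (0.58 ± 0.11, limma adjusted p = 0.00465). That gene was also called for diet within Transgenic Mosaic 1 (limma F test, adjusted p = 6.13e-05), so its 0.58 averages over diets that differ. The 5 genes in no class were akip1, ankrd67, epdl1, rtn2b and tmeff1b, with differences of 0.19 to 1.12.

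Gene families were searched for genes of the set, where 0.984% of all genes met the rule. The count of 52 families leaves out those added after the genes of the set were seen. Of the 52, 14 had a gene in the set and 4 had 2 or more. These 4 were the solute carriers, the zinc finger genes, the tripartite motif genes and the ubiquitin-conjugating enzymes. Together the 14 families held 23 of the 150 genes. Among the added families, nicotinic subunits, peroxins, dual specificity phosphatases, syntaxins with their binding proteins, and cohesin factors had 2 genes each. Nothing is read from those counts, since the families were picked with the set in view. Families with no gene in the set included histones (3 measured), tubulins (17), collagens (36), claudins (29), potassium channels (88), cytosolic ribosomal proteins (64) and heat shock proteins (62). At that share, families of these sizes can hold none, so nothing is read from their absence. Whether any family differs from that share was not tested.

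Array features that share a symbol with a gene of the set allowed a look at second copies. For 13 genes of the set there were 15 such features, of which 4 (26.7%) were called higher, 1 (6.67%) lower and 10 not, where 6.4% of all genes were called higher and 6.95% lower. Besides GGACT, the features called higher were those of si:dkeyp-20g2.1 (0.34 ± 0.08, limma adjusted p = 0.0116, and 0.51 ± 0.13, adjusted p = 0.0212) and of ADNP2 (0.28 ± 0.09, adjusted p = 0.0479). For SLC2A1 the second feature had -0.42 ± 0.14 (adjusted p = 0.0606), so it was not called. Symbols in capitals are those of the human gene and do not tell which of the zebrafish copies a feature measures.

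The order of genes along the chromosomes was available for all but 46 of the 150, and the 29 unnamed genes were among those without a place. Members that lie within 3 measured genes of each other made up 4 pairs, or 8 genes (7.69%). HELQ and HPSE are adjacent on chromosome 21, and lad1 and ftr57 are adjacent on chromosome 23. ENOPH1 and carm1l on chromosome 10 are separated by TMEM150C, which was not called (0.05 ± 0.11, limma adjusted p = 0.809). CEP19 and IMPACT on chromosome 22 are separated by ing5a, which was not called either (-0.28 ± 0.12, adjusted p = 0.139). Among the genes on either side of these 4 pairs FBN2, beyond IMPACT, was the only one called, and it was lower (-1.38 ± 0.38, adjusted p = 0.0284).

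Over all placed genes of the set, 201 other genes lay within 3 measured genes. Of these 21 (10.4%) were called higher in Transgenic Mosaic 1 and 9 (4.48%) lower, where 6.74% and 6.79% of all placed genes were. For the 92 placed genes of the reverse set, 176 neighbours were looked at, with 10 (5.68%) called higher and 19 (10.8%) lower. The difference in share was not tested. The set was spread over 24 of the 25 chromosomes, with 1 to 7 genes on each of these 24.

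**Figure D4:**
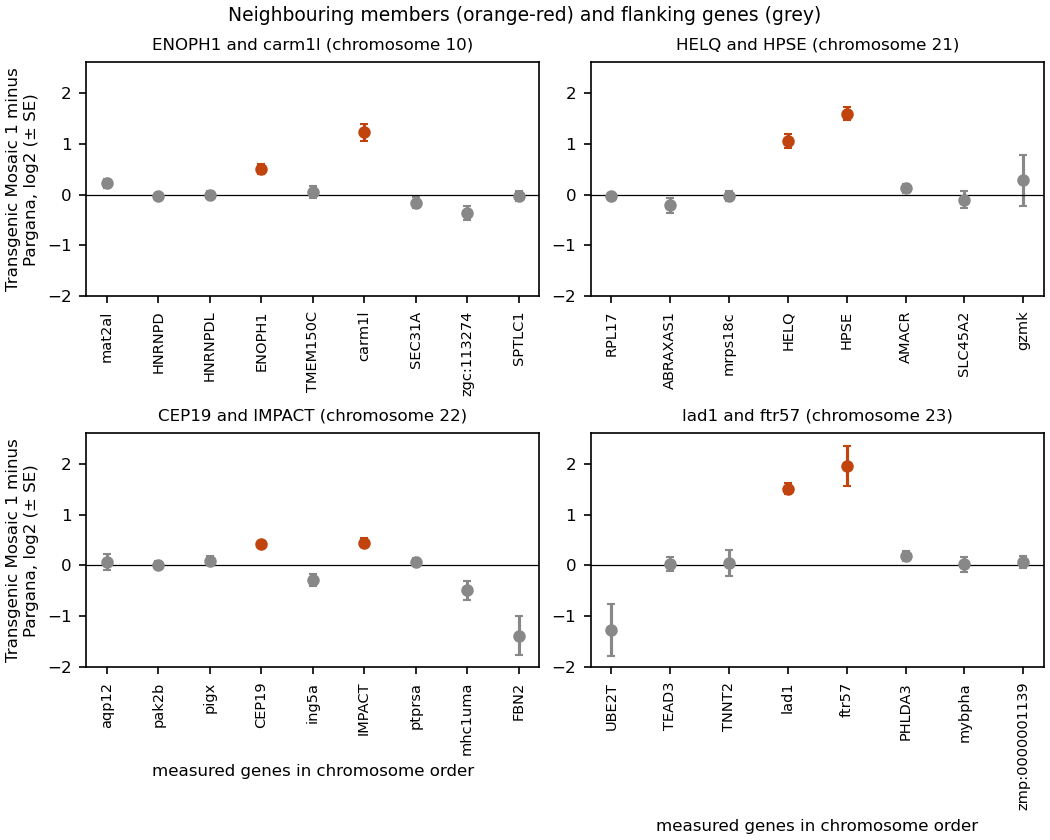
The 4 pairs of neighbouring genes of the set (orange-red) with up to 3 measured genes on either side (grey), in chromosome order. The y axis is the Transgenic Mosaic 1 minus Pargana difference (log2, mean of 3 diets) and bars are SE. HELQ and HPSE stand at 1.05 and 1.59 between neighbours that lie near 0, and ftr57 beside lad1 reaches 1.95.

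The diet labels were not used to choose the genes. The rule does use the value of every fish, and so it bounds how far a diet can move fish of a population towards the other one. At an adjusted p under 0.05, limma's F test over the diets called 11 of all genes (0.0703%) within Transgenic Mosaic 1, 5 (0.032%) within Pargana and 6 (0.0383%) for the interaction of population and diet. None of the 150 genes passed any of these tests. At an unadjusted p under 0.05, 10 of them (6.67%) did within Transgenic Mosaic 1, where 4.66% of all genes did. Within Pargana 10 (6.67%) did, where 6.98% of all genes did, and for the interaction 14 (9.33%) did, where 5.63% of all genes did. Because of that bound these shares are a description.

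The differences between the populations were of similar size on the 3 diets. Their median over the 150 genes was 0.73 on the deficient, 0.72 on the control and 0.81 on the supplemented diet. The largest difference fell on the deficient diet in 53 genes, on the control diet in 51 and on the supplemented diet in 46. In 103 genes the 3 differences lay within 0.5 of each other, and in 12 they spread by more than 1. The control values rest on only 2 Pargana fish.

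**Figure D5:**
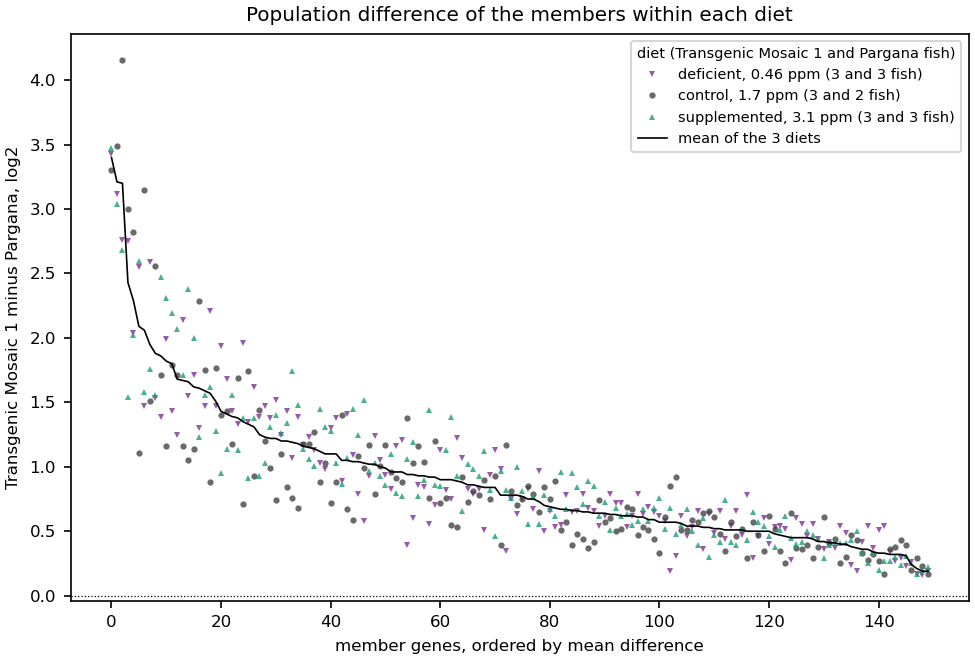
Transgenic Mosaic 1 minus Pargana differences (log2) of the 150 genes within each diet, ordered by their mean over the diets (line). Deficient and supplemented points are means of 3 and 3 fish, control points of 3 and 2. The 3 sets of points overlap along the whole order, and the highest point is ENSDARG00000076531 on the control diet, at 4.16.

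The smallest adjusted p for diet within Transgenic Mosaic 1 belonged to trim35-31 (0.115). It averaged 9.78 ± 0.26 on the deficient, 8.82 ± 0.30 on the control and 9.56 ± 0.16 on the supplemented diet in Transgenic Mosaic 1 (SD, n = 3 fish each, limma). In Pargana it averaged 7.57 ± 0.10, 7.94 ± 0.23 and 7.94 ± 0.05 in the same order, with 2 control fish. So the control fish were lowest in Transgenic Mosaic 1, and trim35-31 also had the smallest p for the interaction (limma adjusted p = 0.305). Without Transgenic Mosaic 1 deficient fish 2, whose eye and pineal score was 1.07, its adjusted p within Transgenic Mosaic 1 was 0.048.

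GGACT came second within Transgenic Mosaic 1 (limma adjusted p = 0.499). It averaged 5.56 ± 0.98 on the deficient, 7.32 ± 0.43 on the control and 5.77 ± 0.76 on the supplemented diet (SD). In nppa, the third (limma adjusted p = 0.751), the averages were 6.25 ± 0.27, 5.89 ± 0.07 and 6.59 ± 0.21. None of these values passed the test.

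Within Pargana the smallest adjusted p was that of CLIC3 (limma, 0.152). It averaged 7.31 ± 0.33 on the deficient, 8.39 ± 0.03 on the control and 7.55 ± 0.16 on the supplemented diet, with 3, 2 and 3 fish. In Transgenic Mosaic 1 its averages on the same diets were 9.26 ± 0.31, 9.11 ± 0.09 and 8.93 ± 0.16. AQP8 (limma adjusted p = 0.246) averaged 6.36 ± 0.31, 7.05 ± 0.41 and 7.43 ± 0.37 in Pargana, and NIT2 (adjusted p = 0.271) averaged 8.98 ± 0.12, 9.10 ± 0.24 and 9.61 ± 0.09. Both were highest on the supplemented diet in Pargana without passing the test. EDC3, behind trim35-31 and CLIC3 for the interaction (limma adjusted p = 0.661), averaged 8.67 ± 0.19, 8.85 ± 0.25 and 8.86 ± 0.17 in Transgenic Mosaic 1, against 8.27 ± 0.14, 7.47 ± 0.39 and 7.80 ± 0.21 in Pargana.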

How the data were processed

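Total RNA from single midbrains of 17 male fish was hybridised, labelled with Cy3, to NimbleGen arrays, per the labels' protocols. The authors deposited log2 expression values per Ensembl gene, made by RMA on the Zv9 build per the submitters' processing notes. These values were used as deposited. Of 15649 features, 1 names no gene and was left out, and 13251 of the other 15648 have a symbol. No array slide or scan date was given, so array batches could not be looked at. One fish, Pargana deficient fish 3, carries a letter in its label code that no other Pargana fish has, and leaving it out was an alternative. Nothing says that fish share a tank or family. Replicate numbers are accession order and pair no fish.

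All 17 arrays entered 1 linear model of 6 group means (limma 3.58.1, R 4.3.3; 11 residual, 2.84 prior degrees of freedom). Tests were two-sided, with p-values adjusted by Benjamini and Hochberg over all 15648 genes, with a threshold of 0.05. Python 3.11.15 with pandas 2.3.3, numpy 2.4.6 and matplotlib 3.10.9 gave the summaries and plots. The fit was tested on simulated data. Gene order came from RefSeq's GRCz12tu annotation through symbols, for 10479 genes. Coordinates on Zv9 were not used here. Sequence differences between the populations at the probes were not tested.

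Named genes were the 20 of largest difference, those in a gene family or neighbouring pair, the 3 of smallest p in each diet test and 5 on each side of the rule's edge. Other genes were named by class. A few members are counted but not described here. The genes and lists were chosen with earlier results of these data known. Classes were chosen after the genes were seen. So were the families of cohesin, condensin, fbxo44 genes, sialidases, adenosine receptors, nicotinic subunits and natriuretic peptides. Peroxins, dual specificity phosphatases, syntaxins, inter-alpha-trypsin inhibitor heavy chains and the genes of the clone of si:dkey-58f10.6 were also looked up then. Alternatives were other normalizations, filters and variance models, each fish left out and wider gaps. Marker scores as covariates and removal of the fish of high marker score were others. Of these, the radial glia score, the population calls with marker scores and the removal were added after seeing the data.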

Additional observations from a re-analysis of the deposited data

Results flagged for a closer look

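For the 20 genes of largest difference, the fish of each population were searched for a single fish far from the rest, which gave 40 sets of fish. Chance flags about 1 set in 20, and 2 were flagged. In HPSE, Transgenic Mosaic 1 control fish 2 had 8.72, and the next highest of that population had 8.07. In ENSDARG00000040431, Pargana supplemented fish 3 had 6.03 and the next highest Pargana fish had 5.13. That Pargana fish also had a pituitary score of 1.69.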

How the results depend on the processing

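The set held 150 genes. Requiring a gap of at least 0.1, 0.25 or 0.5 left 82, 42 and 12 of them, and without the 5 fish of high marker score 440 genes met the rule. It held 161 to 203 with 1 fish left out, 163 (125 of them shared) with quantile normalization repeated and 160 (133 shared) with arrays centred on their medians. Genes called between the populations numbered 2089, against 32 with 4 marker scores as covariates, 1089 with the radial glia score, 779 without the 5 fish and 1590 to 2136 with 1 fish left out. Diet calls within Transgenic Mosaic 1 numbered 11, against 7 without the lowest quartile of genes, 5 with that population alone and 5 to 19 with 1 fish left out. Within Pargana they numbered 5, against 3 without the lowest quartile, 8 with trended and robust variances, 1 with Pargana alone and 2 to 161 with 1 fish left out. Interaction calls numbered 6, against 5 to 87 with 1 fish left out. The highest counts within Pargana and for the interaction came without Pargana control fish 2, which leaves 1 control fish, assumed to vary like the other groups. Among these fits a gene of the set passed a diet test in 1, trim35-31 without Transgenic Mosaic 1 deficient fish 2. Of 440 values of the 20 largest genes, 424 moved by less than 1 SD, 15 by more, and ENSDARG00000071890 turned to -0.16 with the 4 scores. Of the 15, 7 moved with the 4 scores, 7 without the 5 fish and 1 with the radial glia score. Each of these 3 fits gave only 20 of the 440 values. No value moved by more than 1 SD with 1 fish left out, quantile normalization repeated or arrays centred on their medians. The cause of these shifts was not tested. Without the 5 fish no Pargana control fish was left, and of the Pargana supplemented fish only fish 2. That fit therefore could not hold the 6 group means, and its differences are not means over the same diets. Its count of called genes is not directly comparable with 2089. No paired analysis was possible because the labels give no replicate numbers that link fish across groups. The number of arrays and signals near the floor limit the precision.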
